A study of Mus musculus with 3 samples.

Results

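A group of 9 transcription factor genes that mark or shape the collecting duct of the kidney, Gata2, Gata3, Tfcp2l1, Grhl1, Grhl2, Pax2, Pax8, Foxi1 and Lhx1, was examined in mpkCCD cells with and without knockdown of the glucocorticoid receptor. They were taken by gene symbol from the transcript table, which gave 9 of 51803 symbols and 38 of 128603 transcripts. The mpkCCD cells are an immortalized mouse line that stands in for the principal cell, the cell of the cortical collecting duct that takes up water and sodium. Of the lines compared, shCtrl carried a control hairpin, and shGR1 and shGR2 each carried a different hairpin against the receptor mRNA. The hairpins were delivered by lentivirus, and stable lines were selected with puromycin. All of the lines were grown on permeable supports, kept with dexamethasone (an agonist of the receptor) while serum and the other supplements were withdrawn, and given vehicle with no dDAVP (0 nM), the vasopressin analog. One library was sequenced per line, 3 in all, so the difference of a line from shCtrl has no replicate check. An SD beside a mean log2 ratio is that of shGR1 and shGR2 (n = 2 lines), which share the same control library and carry different hairpins rather than repeats of one.

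GATA2 and GATA3 are zinc finger factors: in the mouse, GATA3 is needed for the growth of the nephric duct from which the collecting duct arises, and GATA2 for expression of the water channel gene Aqp2 in the adult duct. TFCP2L1 and GRHL2 are members of the grainyhead superfamily that support collecting duct differentiation and the tight epithelial barrier of the duct, and GRHL1 is a close relative of GRHL2 best known from the skin. PAX2 and PAX8 are paired box factors that specify the kidney lineage, the LIM homeobox factor LHX1 acts with them in the nephric duct, and FOXI1 is the forkhead factor that drives the acid-base transporting intercalated cells.

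The 3 libraries were alike in the number of genes detected. Abundance was given as FPKM, which scales the fragments of a transcript to its length and to the library. Summed over all transcripts it came to 462520, 435340 and 427700 in shCtrl, shGR1 and shGR2, so the sum was highest in shCtrl. In each library between 14388 and 14484 gene symbols were over 0.3 FPKM, the level above which the study took a gene as expressed, and 15438 were over it in at least 1 library. Read counts were not analysed here. From the smallest steps of FPKM times length in genes with 1 transcript, 1 fragment on a transcript of 1 kilobase was worth roughly 0.0313, 0.0298 and 0.0286 FPKM in shCtrl, shGR1 and shGR2, a crude measure used below to say which values rest on few fragments. Nr3c1, the receptor gene that the hairpins target, was at 30.2, 4.41 and 9.13 FPKM in the shCtrl, shGR1 and shGR2 libraries, so it was lower in both lines labelled as its knockdown. Genes typical of principal cells were over 0.3 FPKM in 15 of 20 cases, among them Aqp2 at 9.55 FPKM and the vasopressin V2 receptor gene Avpr2 at 28.5 FPKM in shCtrl, whereas Scnn1b, a subunit of the epithelial sodium channel, and Kcnj1, the apical potassium channel, were under it in every library.

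Of the 9 factors, 7 were expressed and 2 were not. Tfcp2l1 was at 101, 78.0 and 69.3 FPKM in the shCtrl, shGR1 and shGR2 libraries. Pax8 was at 89.0, 77.0 and 85.2 FPKM. Gata3 was at 59.6, 43.2 and 46.6 FPKM. These genes for a grainyhead-type factor, a paired box factor and a GATA factor were the highest members in all 3 libraries, and each had its highest value in shCtrl. Pax2 was at 35.9, 33.5 and 33.6 FPKM in the same order of libraries. Grhl2 was at 31.7, 24.6 and 22.3 FPKM, Grhl1 at 6.01, 3.66 and 5.04 FPKM, and Gata2 at 3.18, 3.13 and 2.68 FPKM. The order of the levels was Tfcp2l1, Pax8, Gata3, Pax2, Grhl2, Grhl1 and Gata2 in shCtrl and shGR1, and in shGR2 Pax8 stood above Tfcp2l1. Over the 3 libraries the ranges of Tfcp2l1 and Pax8 overlapped, and no other neighbors in that order did. The plot of member levels by library shows this order.

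**Figure D1:**
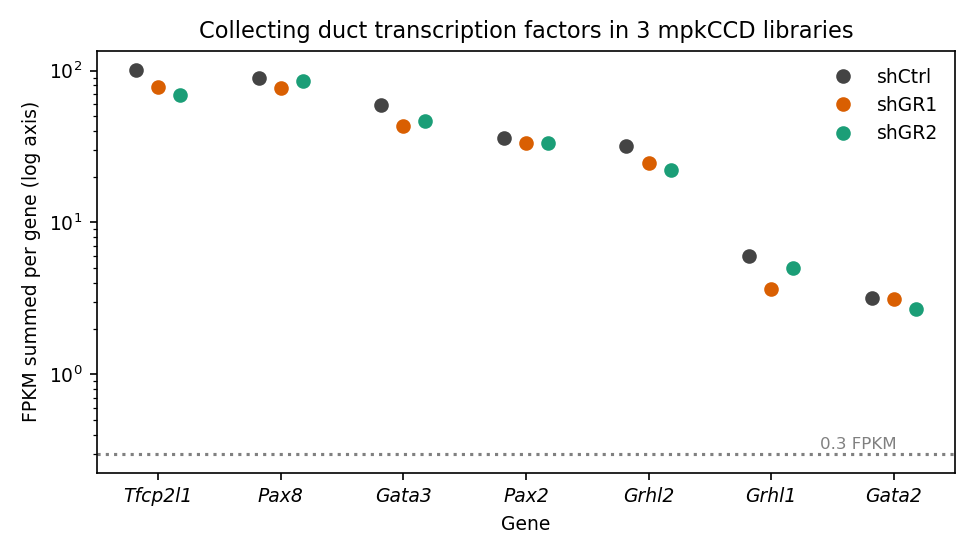
FPKM summed over the transcripts of a gene (log axis) for the 7 expressed factors, with 1 point for each library (shCtrl, shGR1 and shGR2); there are no error bars because each line had 1 library. The levels run from 101 FPKM for Tfcp2l1 to 2.68 FPKM for Gata2, and the shCtrl point is the highest for every gene.

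In rank among the 15438 expressed genes, Tfcp2l1 was at percentile 95.3 and Pax8 at percentile 94.2 in shCtrl, Gata3 at 89.8, Pax2 at 80.9 and Grhl2 at 77.8. The other expressed factors were in the lower part of the distribution, with Grhl1 at percentile 39.0 and Gata2 at 31.1. Within the GATA pair, Gata3 exceeded Gata2 in every library, and within the grainyhead pair Grhl2 exceeded Grhl1. Their close relatives were mostly silent. Of 23 paralogs of the 9 factors, 5 were over 0.3 FPKM in any library, the highest being Ubp1, a relative of Tfcp2l1, at 50.1, 49.9 and 53.0 FPKM, whereas Grhl3 was at 0.0062 FPKM or less and Foxi2 and Foxi3 were listed at 0.

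Foxi1, on the reverse strand of chromosome 11 (chr11:34204338-34208089, GRCm38), has 1 annotated transcript, which was listed at 0 in all 3 libraries. Lhx1 (chr11:84518284-84525535) was at 0.0071, 0.0924 and 0.0367 FPKM, roughly the worth of 0.83, 5.41 and 1.28 fragments, and 2 of its 4 transcripts were listed at 0 throughout. No fold is given for either gene, since these values rest on almost no fragments, and a level this low was not separable from none at this depth. Genes of intercalated cells were mixed. Of 19 genes listed for FOXI1, TFCP2L1 or intercalated cells, 8 were over 0.3 FPKM, led in shCtrl by Atp6ap2 at 56.0 FPKM and Atp6v1b1 at 39.4 FPKM. The others were low. Slc4a1, the basolateral anion exchanger of acid-secreting cells, and Slc26a4, the apical exchanger pendrin, were at 0.0398 FPKM or less in each library.

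All 7 expressed factors were lower than shCtrl in both knockdown lines. Of all 15438 expressed genes, 43.8% were lower in both lines and 31.8% were higher in both, the lines sharing their control. None of the 7 was 2-fold lower in both lines, a difference reached by 2.9% of the 15025 expressed genes with values above 0 in all libraries (2.21% were 2-fold higher). The median log2 ratio of the 7 factors was -0.37 in shGR1 and -0.25 in shGR2, against -0.03 and -0.07 for all expressed genes. With the ratios centred on the median of all genes, or with the libraries quantile normalized, 5 of the 7 remained lower in both lines, and Gata2 and Pax8 then lay on opposite sides of shCtrl in the knockdown lines. Over the 15025 genes with finite ratios, centring moved the split from 43.9% lower and 32.2% higher to 38.1% and 38.2%, and quantile normalization to 35.4% and 40.7%.

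**Figure D2:**
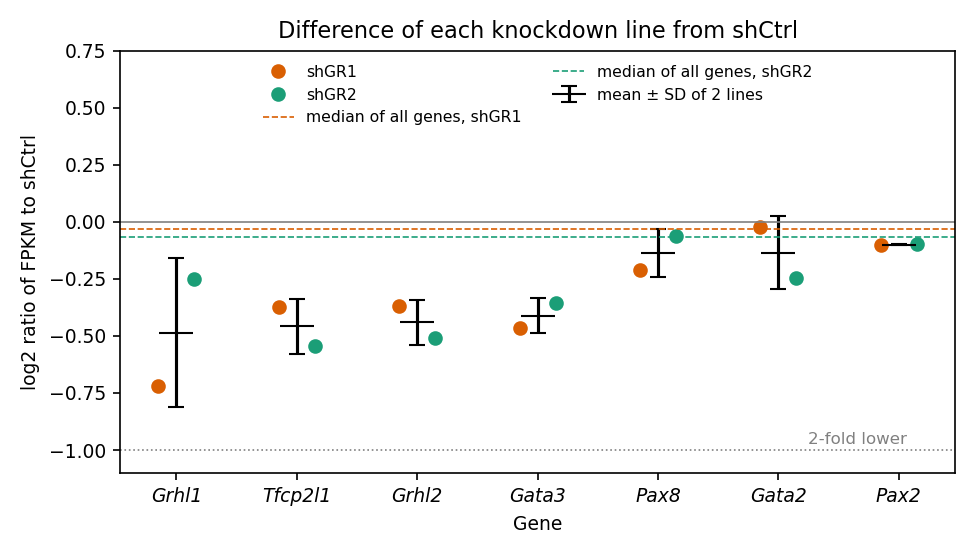
Log2 ratio of FPKM in shGR1 and shGR2 to shCtrl for each expressed factor (points), with the mean and SD of the 2 lines (bars), the median ratio of all expressed genes in each line (dashed) and the 2-fold level (dotted). Grhl1, Tfcp2l1, Grhl2 and Gata3 have means between -0.48 and -0.41, whereas Pax8, Gata2 and Pax2 have means between -0.14 and -0.10, close to the median of all genes.

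The mean differences were similar in Gata3, Tfcp2l1, Grhl2 and Grhl1 and smaller in the other 3 factors. Gata3 held 72.5% of its control level in shGR1 and 78.1% in shGR2 (mean log2 ratio -0.41 ± 0.08, SD, n = 2 lines). For Tfcp2l1 these shares were 77.2% and 68.7% (-0.46 ± 0.12), and for Grhl2 77.4% and 70.2% (-0.44 ± 0.10). In each of these genes the lines lay closer to each other than to the control. The mean ratio of Tfcp2l1 was at percentile 15.8 of all expressed genes, that of Grhl2 at 16.4 and that of Gata3 at 17.8. In limma, fitted over all expressed genes, the unadjusted p was 0.023 for Gata3, 0.025 for Tfcp2l1 and 0.031 for Grhl2. After Benjamini-Hochberg adjustment over 15438 genes these became 0.31, 0.31 and 0.32, so none of the factors passed 0.05. An unadjusted p under 0.05 with a lower level was found for 9.44% of all genes and for 3 of the 7 factors, and one with a higher level for 4.53% of all genes and for 0 of the factors.

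Grhl1 had the lowest mean ratio of the factors and the widest spread, at 60.8% of control in shGR1 and 83.9% in shGR2 (-0.48 ± 0.33). Its level in shGR2 was 0.46 higher on the log2 scale than in shGR1, the largest gap between the knockdown lines among the 7, and its limma adjusted p was 0.52. Pax8 was at 86.4% and 95.7% of control (-0.14 ± 0.10, limma adjusted p = 0.61). Gata2 was at 98.6% and 84.2% (-0.13 ± 0.16, limma adjusted p = 0.83), at a level worth roughly 300 fragments in each library. Pax2 was at 93.2% and 93.5% (-0.10 ± 0.003, limma adjusted p = 0.66). Its lines lay close together, and its mean ratio, at percentile 43.8, was near the middle of all expressed genes, as were those of Pax8 (39.3) and Gata2 (39.6).

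Over all genes limma made 0 calls at an adjusted p under 0.05, with 1458 genes lower and 699 higher at an unadjusted p under 0.05. With 1 residual degree of freedom, the fit takes its spread from shGR1 and shGR2 alone and assumes that the single control library varies likewise. The unadjusted p of Gata3, Tfcp2l1 and Grhl2 lay above 0.05 when limma was fitted without the abundance trend. That of Tfcp2l1 also did so with no filter on low values. The alternative settings of the fit made from 0 to 448 calls, and the adjusted p of the 7 factors was at least 0.0987 in every one, the lowest being that of Tfcp2l1.

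The summed levels held transcripts that differed from one another, and the share of the leading transcript shifted most in Grhl1. The gene (chr12:24572283-24617391, forward strand) has 2 complete coding transcripts that begin at different places. Grhl1-202, which starts at the first promoter at position 24572283 and encodes 618 residues, was at 5.23, 2.34 and 3.22 FPKM in the shCtrl, shGR1 and shGR2 libraries. Grhl1-201, which starts within the gene at position 24580749 and encodes 536 residues, was at 0.759, 1.30 and 1.81 FPKM. The long form was thus lower in both lines (mean log2 ratio -0.93 ± 0.33), and the short form higher in both (1.02 ± 0.33). The share of the short form in the pair was 12.7% in shCtrl, 35.8% in shGR1 and 36.0% in shGR2. The forms share all but their first exons, so the split is an estimate by Cufflinks from the fragments on the parts that differ, and in this table it carries no error.

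The coding bases found only in the long form are shown because the transcript difference turns on them. They are 278 bases in 3 exon segments between positions 24572439 and 24578090 of chromosome 12 (GENCODE M21, GRCm38), joined here 5′ to 3′ with the start codon in capitals, and the short form has 32 coding bases of its own in their place.
Grhl1-202 only: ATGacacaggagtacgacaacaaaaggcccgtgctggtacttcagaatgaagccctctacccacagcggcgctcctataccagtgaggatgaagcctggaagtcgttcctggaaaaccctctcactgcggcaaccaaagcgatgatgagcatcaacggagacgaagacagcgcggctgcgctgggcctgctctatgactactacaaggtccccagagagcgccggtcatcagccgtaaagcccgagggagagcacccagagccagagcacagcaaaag

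The promoters nearest the starts of both forms are shown because these forms lay on opposite sides of the control. Each sequence is the 250 bases before a RefSeq start on GRCm38.p6, forward strand, 5′ to 3′, at chr12:24572037-24572286 for the first promoter and chr12:24580469-24580718 for the internal one. Neither sequence ends exactly at the GENCODE start of its form, which is 24572283 for Grhl1-202 and 24580749 for Grhl1-201. The base after the internal sequence, 24580719, is the annotated start of the noncoding Grhl1-204. That transcript was at 0.00075, 0.00058 and 0.00063 FPKM in the shCtrl, shGR1 and shGR2 libraries. Capitals mark the GC box, GGGCGG on either strand (CCGCCC as printed).
Grhl1 first promoter: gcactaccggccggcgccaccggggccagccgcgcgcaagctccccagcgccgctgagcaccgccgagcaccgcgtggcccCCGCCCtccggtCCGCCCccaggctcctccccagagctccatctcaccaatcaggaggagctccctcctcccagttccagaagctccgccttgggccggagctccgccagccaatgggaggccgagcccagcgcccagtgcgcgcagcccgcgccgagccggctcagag
Grhl1 internal promoter: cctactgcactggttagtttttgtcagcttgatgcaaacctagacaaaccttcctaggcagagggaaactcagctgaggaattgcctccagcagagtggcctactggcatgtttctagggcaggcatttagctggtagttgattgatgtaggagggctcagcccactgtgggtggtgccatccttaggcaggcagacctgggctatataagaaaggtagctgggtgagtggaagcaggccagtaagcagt
The first window, with 50 further bases after the start, was 75.3% G and C and held 2 GC boxes, and the internal one was 51.3% G and C and held 0, beside a median of 52.7% over all 32851 promoter windows. A GC box was present in 35.7% of all windows.

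Of the 9 factors, 8 were matched to RefSeq promoters, with 12 windows of 300 bases (250 before and 50 after a start), and Grhl2 was not matched. None of the 12 windows held the GATA site AGATAA, found in 11.2% of all windows, the grainyhead site AACCGGTT (0.146%), the cAMP response element TGACGTCA (1.79%) or a full glucocorticoid response element (0.00913%, 3 windows), all searched on both strands. A GC box was present in 8 of the 12. The only TATA box (TATAAA, 13.6% of all windows) was in the promoter of Tfcp2l1, at 28 bases before its start. The GC and TATA boxes were added to the search after the other motifs had been set. These matches describe the letters of short windows and say nothing of binding.

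Pax2 (chr19:44756045-44837871) hid a difference of the same kind behind a nearly constant sum. Pax2-203, which encodes 394 residues, was at 17.8, 12.9 and 14.9 FPKM in the shCtrl, shGR1 and shGR2 libraries. Pax2-201, which encodes 416 residues and has 1 more exon, was at 11.8, 14.9 and 14.5 FPKM. The first was lower in both knockdown lines (-0.36 ± 0.15) and the second higher in both (0.31 ± 0.03), and the share of Pax2-201 in the pair was 39.9% in shCtrl, 53.5% in shGR1 and 49.3% in shGR2. Another transcript with an incomplete 3′ end, Pax2-202, was at 6.34, 5.68 and 4.18 FPKM. The pair differ at their starts (position 44756045 for Pax2-203 and 44757394 for Pax2-201) and in length (4358 and 3095 bases), so the split between them does not rest on 1 exon. The coding exon that Pax2-203 lacks, exon 6 of 11 in Pax2-201, is 69 bases long at chr19:44796628-44796696 (forward strand, GENCODE M21, GRCm38), and it is printed whole because it accounts for most of the difference in coding sequence. Pax2-203 has 3 coding bases that Pax2-201 lacks.
Pax2-201 exon 6: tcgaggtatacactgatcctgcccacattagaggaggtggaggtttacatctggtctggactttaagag

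Pax8 (chr2:24420560-24475599, reverse strand) was carried by Pax8-201, the full-length form of 457 residues, at 79.2, 59.6 and 66.7 FPKM in the shCtrl, shGR1 and shGR2 libraries. Its share of the summed level was 88.9% (shCtrl), 77.5% (shGR1) and 78.3% (shGR2), and its mean log2 ratio of -0.33 ± 0.11 was lower than the -0.14 of the whole gene. Shorter coding transcripts were higher in both lines. Pax8-203 was at 6.67, 10.7 and 7.45 FPKM and Pax8-204 at 1.44, 4.004 and 3.60 FPKM, while Pax8-207, listed at 0 in shCtrl, was at 0.741 and 2.43 FPKM in the knockdown lines. Pax8-205, a retained intron of 345 bases, was at 1.45, 1.05 and 4.66 FPKM, roughly 6.73, 5.11 and 23.7 fragments, and it lay on opposite sides of the control in the 2 lines. The levels of the Grhl1, Pax2 and Pax8 transcripts are plotted by library.

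**Figure D3:**
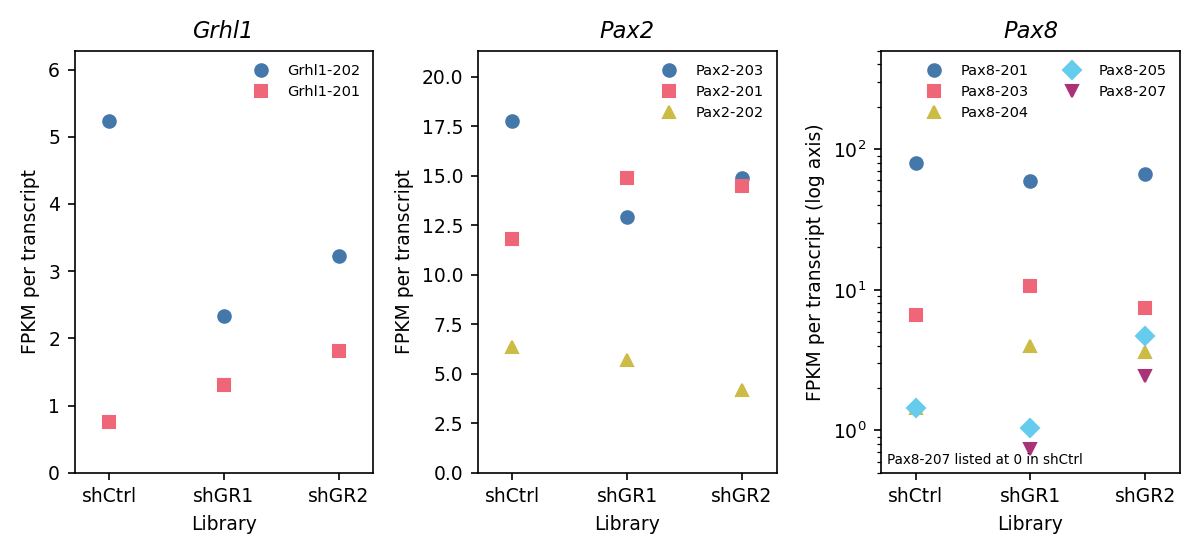
FPKM of each transcript with a mean of at least 1 FPKM in the shCtrl, shGR1 and shGR2 libraries, for Grhl1 and Pax2 (linear axes from 0) and Pax8 (log axis); points are single libraries, with no error bars. Grhl1-202 goes from 5.23 FPKM in shCtrl to 2.34 and 3.22 FPKM in the knockdown lines while Grhl1-201 goes from 0.759 to 1.30 and 1.81 FPKM, and Pax2-203 and Pax2-201 also move in opposite directions.

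Opposite movement of the 2 leading transcripts was common in the table. Among 6515 expressed genes whose 2 leading transcripts each had a mean of at least 1 FPKM, 31.5% had them on opposite sides of the control in both lines, and 13.7% also had a shift in their shares of at least 10 percentage points in both lines. Of the 5 factors that could be compared in this way, 3 had opposite leading transcripts (Grhl1, Pax2 and Pax8), and 1 of them (Grhl1, with -23.2 points in shGR1 and -23.3 in shGR2) passed the shift of 10 points in both lines. Pax2 shifted by -13.6 and -9.35 points.

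In Gata3 and Grhl2 the 2 leading transcripts lay on the same side of the control. Gata3 (chr2:9857078-9890034, reverse strand) was made up mainly of Gata3-201, at 49.1, 36.1 and 37.6 FPKM in the shCtrl, shGR1 and shGR2 libraries, which held between 80.8% and 83.5% of the gene in each library. The noncoding Gata3-204, which starts upstream, was at 7.24, 5.21 and 5.59 FPKM, with a mean log2 ratio of -0.43 ± 0.07 beside -0.41 ± 0.04 for Gata3-201. Tfcp2l1 (chr1:118627945-118685168) was almost wholly Tfcp2l1-201, a transcript of 9269 bases that encodes 479 residues, with at least 99.85% of the gene in each library. Its sum was therefore the least dependent on the split between transcripts.

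Grhl2 (chr15:37233036-37363569) was led by Grhl2-201, which encodes 625 residues, at 20.4, 17.8 and 16.7 FPKM. Its mean log2 ratio of -0.24 ± 0.07 was smaller in size than the -0.44 of the summed gene. The rest of the difference lay in shorter transcripts. Grhl2-205, a noncoding transcript from the 3′ part of the gene, was at 5.85, 3.82 and 3.37 FPKM (-0.70 ± 0.13), and Grhl2-204, a fragment of 632 bases from the 5′ end, was at 4.93, 2.54 and 1.67 FPKM (-1.26 ± 0.43). Gm16136, an antisense gene annotated over the first exon of Grhl2, was at 25.6, 11.1 and 11.5 FPKM (-1.18 ± 0.04). It was named after its values were seen. Since the sources used here do not give the library strand, reads from Gm16136 and from the start of Grhl2 cannot be told apart. The same holds for 9230102O04Rik (2.61, 1.56 and 1.30 FPKM) and 4930412O13Rik (2.65, 1.69 and 1.87 FPKM) in the Gata3 locus, also named after their values were seen.

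Gata2 (chr6:88193891-88207032) has 2 long transcripts that start 4443 bases apart and encode the same 480 residues. Gata2-201, from the downstream start, was at 1.89, 2.03 and 1.81 FPKM in the shCtrl, shGR1 and shGR2 libraries. Gata2-202, from the upstream start, was at 0.969, 0.771 and 0.827 FPKM, and was lower in both lines (-0.28 ± 0.07). A short coding transcript of 423 bases, Gata2-203, was at 0.122, 0.337 and 0 FPKM, worth roughly 0.872, 2.52 and 0 fragments. The upstream transcript made up 32.5% (shCtrl), 24.6% (shGR1) and 31.4% (shGR2) of the coding total, which includes Gata2-203. With protein-coding transcripts alone, an alternative chosen after seeing the data, the gene was at 2.98, 3.13 and 2.64 FPKM. Its direction in shGR1 thus depended on minor transcripts. These were 2 retained introns that together held 0.201 FPKM in shCtrl, and the short coding Gata2-203, which rests on very few fragments.

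The genes closest to Grhl1 in their pair of ratios, among 12321 whose mean reached 1 FPKM, were Tmem147, a transmembrane protein gene (33.8, 20.6 and 28.5 FPKM), S100a8, a calprotectin subunit gene (1.33, 0.799 and 1.12 FPKM), and Mrps18a, a mitochondrial ribosomal protein gene (42.2, 26.0 and 35.7 FPKM). Their distances from Grhl1 were 0.0084, 0.017 and 0.019 on the log2 scale over the 2 lines, and 46 genes lay within 0.1, so the pattern was not rare.

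Genes associated with the factors were counted from lists. Among 6 expressed genes listed for GATA2 or GATA3, 5 were lower in both lines and 0 were higher, with a median log2 ratio of -0.56 beside -0.05 for all genes. Aqp2, the water channel gene, was at 9.55, 0.751 and 2.14 FPKM in the shCtrl, shGR1 and shGR2 libraries. Avpr2 was at 28.5, 12.8 and 12.1 FPKM (-1.20 ± 0.06, limma adjusted p = 0.22). Cited2, a transcriptional coregulator gene, was at 132, 88.5 and 96.3 FPKM, and Id2, an inhibitor of helix-loop-helix factors, at 224, 179 and 121 FPKM. These genes were selected as linked to GATA factors and not for a measured dependence on them here. Avpr2 and Aqp2 differed by more than 2-fold in both lines, while Gata3 and Gata2 did not.

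In the list for FOXI1, TFCP2L1 or intercalated cells, all 8 expressed genes were lower in both lines and 3 of them 2-fold lower, with a median log2 ratio of -1.06, although Foxi1 itself was listed at 0. Over all expressed genes 43.8% were lower in both lines, and 2.9% of those above 0 in all libraries were 2-fold lower. The difference was not particular to this list. Of 15 expressed principal cell genes, 9 were lower and 4 higher in both lines and 7 were 2-fold lower, with a median of -1.055. Atp6v0a4, a subunit of the proton pump, was at 29.9, 5.18 and 7.93 FPKM (-2.22 ± 0.44, limma adjusted p = 0.27). Atp6v1b1, another subunit of the pump and known in the mouse kidney as a FOXI1 target, was at 39.4, 20.2 and 18.1 FPKM. Car2, the cytosolic carbonic anhydrase gene, was at 34.4, 16.6 and 15.9 FPKM, and Rhcg, an ammonia transporter gene that principal cells also express, was at 13.04, 2.31 and 6.08 FPKM.

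For GRHL2, 11 of 12 listed epithelial junction and adhesion genes were expressed, and 6 were lower and 3 higher in both lines, with a median of -0.07. The median turned to 0.03 and the counts to 5 lower and 6 higher with quantile normalization. Rab25, a small GTPase gene of the duct barrier, was at 110, 82.9 and 81.5 FPKM (-0.42 ± 0.02), and the tight junction genes lay on both sides of the control, with Cldn3 at 110, 87.0 and 86.9 FPKM and Cldn4 at 142, 163 and 192 FPKM. Ovol2, a zinc finger factor gene downstream of GRHL2 in the mouse duct, was at 3.11, 1.81 and 1.62 FPKM. The lowest limma adjusted p in this list was 0.285.

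Of 13 genes listed for PAX2, PAX8 or LHX1, 6 were expressed, 4 lower and 1 higher in both lines, with a median of -0.29. Past 2-fold in both lines were 1 lower and 1 higher gene. Folr1, a folate receptor gene, was at 10.7, 0.657 and 1.92 FPKM, Wnt4, a signal of nephron formation, at 6.72, 4.06 and 3.62 FPKM, and Cdh16, the kidney-specific cadherin gene, at 471, 374 and 382 FPKM. The gene higher in both lines was Gdnf, named after its values were seen, at 0.440, 1.09 and 1.28 FPKM (1.42 ± 0.17). Several genes of early kidney development in this list (Ret, Wnt11 and Fgf8) were at 0.0318 FPKM or less in all 3 libraries.

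Of the partner proteins of the factors, 9 of 12 were expressed, with 3 lower and 5 higher in both lines and a median of 0.12. Lmo4, a LIM-only partner of GATA and LIM homeobox factors, was at 138, 109 and 109 FPKM (-0.34 ± 0.007, limma adjusted p = 0.30), and Tle4, a corepressor gene, at 15.9, 11.7 and 14.1 FPKM. On the other side, Zfpm1, the gene of the GATA cofactor FOG1, was at 2.96, 5.80 and 3.53 FPKM (0.61 ± 0.51, limma adjusted p = 0.55), and Eya1, a coactivator of kidney development, at 12.5, 16.4 and 15.1 FPKM. Among the paralogs, Tfcp2, a relative of Tfcp2l1, was at 7.44, 9.88 and 9.61 FPKM and thus higher in both lines (0.39 ± 0.03, limma adjusted p = 0.39). Ubp1, another relative of Tfcp2l1, lay on opposite sides of the control in the lines, at 50.1, 49.9 and 53.0 FPKM. Pax9 was at 1.97, 2.16 and 2.05 FPKM. In none of these lists did a gene pass an adjusted p of 0.05.

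**Figure D4:**
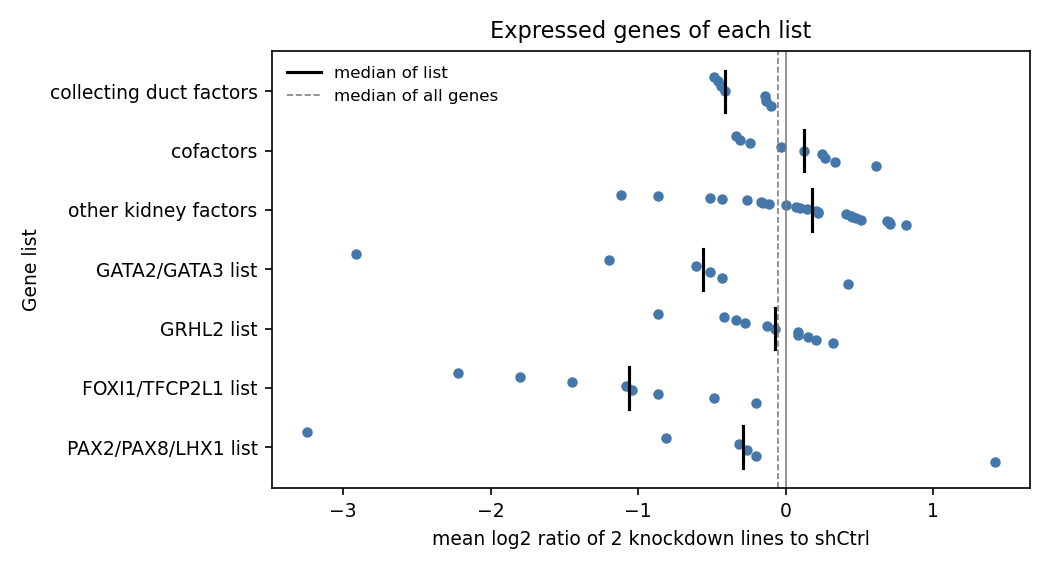
Mean log2 ratio of the 2 knockdown lines to shCtrl for each expressed gene with finite ratios (points), by list, with the median of each list (black) and of all expressed genes (dashed). The 7 collecting duct factors lie between -0.48 and -0.10, the list for FOXI1 or TFCP2L1 lies wholly below 0, and the cofactors spread on both sides of 0.

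Markers of other cell types were also counted, and the lists did not share a direction. Of the 7 expressed fibroblast genes, 6 were neither lower nor higher in both lines. Leukocyte genes were 2 lower and 1 higher in both lines, with 2 neither. Of 10 urothelial genes, 7 were expressed, and their summed level was 536, 359 and 343 FPKM in the shCtrl, shGR1 and shGR2 libraries. Krt7, the highest, was at 252, 265 and 243 FPKM, while the uroplakin gene Upk3a was listed at 0 in all libraries. The 7 had a median log2 ratio of -1.49, with 4 lower and 1 higher in both lines and 3 of them 2-fold lower. These 3, named after their values were seen, were the keratin gene Krt20 (116.5, 32.0 and 30.3 FPKM) and the uroplakin genes Upk1a (90.1, 25.9 and 39.2 FPKM) and Upk3b (66.5, 24.7 and 22.6 FPKM). Of 10 leukocyte genes, 5 were expressed, and the list summed to 52.7, 35.4 and 42.9 FPKM, led by Cd14 (27.1, 18.4 and 20.97 FPKM), with the pan-leukocyte gene Ptprc at 0.189 FPKM or less. Of 9 fibroblast genes 7 were expressed, summing to 10.9, 7.11 and 16.1 FPKM and led by Dcn (3.13, 1.73 and 4.34 FPKM). The remaining lists were low: 2 of 12 proximal tubule genes (Lrp2 at 1.05, 1.10 and 2.10 FPKM), 4 of 10 markers of Henle's loop and the distal tubule (Egf at 1.56, 0.464 and 0.236 FPKM) and 1 of 8 endothelial genes (Eng at 0.315, 0.333 and 0.324 FPKM) were expressed. The part of these markers in the differences of the factors was not tested. In libraries of whole cultures, fewer cells that express a factor and less of its RNA per cell cannot be told apart. Each hairpin was sequenced in 1 line, so the hairpin and the line cannot be told apart either.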

How the data were processed

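RNA-seq of 3 libraries, 1 each from the shCtrl, shGR1 and shGR2 lines, was analysed from the transcript table that the authors deposited, in which abundance is given as FPKM for 128603 Ensembl transcripts, normalized to transcript length and library size. Cufflinks 2.2.1, Cuffdiff, HISAT2 and bcl2fastq 2.20 are listed in the submitters' processing notes. These notes name the build GRCm39, but 98.6% of the 127971 transcripts found in GENCODE M21 lie inside their deposited loci at GRCm38 positions, so positions are on GRCm38. The sources used here do not state the library strand or the HISAT2 version. The authors also deposited ratios to shCtrl with p-values and q-values, and a subset of transcripts past 2-fold, which were not used.

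FPKM values were summed per gene symbol. Genes were called expressed when over 0.3 FPKM in at least 1 library. Log2 ratios to shCtrl were taken with no pseudocount, and a gene was counted as lower or higher when both knockdown lines lay on that side, as the study defined its regulators. A value of 0 in some library was listed for 413 expressed genes. Limma 3.58.1 (R 4.3.3) was fitted with an abundance trend to log2(FPKM + 0.1), shGR1 and shGR2 against shCtrl, two-sided, with Benjamini-Hochberg adjustment over 15438 genes. The values are not counts, so no count model was used. Python 3.11.15, pandas 2.3.3, statsmodels 0.14.6 (trend removal) and matplotlib 3.10.9 were used elsewhere. Alternatives were other scalings, filters, pseudocounts, transcript choices, variance settings and leaving out each knockdown line. Those using protein-coding transcripts alone and genes above 0 in all libraries were added after seeing the data.

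The members and the gene lists were chosen with earlier results of these data known, so no list is independent evidence of its direction. All members were named. From each other list up to 4 expressed genes were named, those with the largest mean ratios on the same side in both lines and a mean of at least 1 FPKM, except that 1 gene so chosen is not reported here. For lists of other cell types the highest gene was named, and for Grhl1, the member with the largest mean ratio, the 3 genes with the nearest ratios. Other genes named, such as Ubp1, Slc4a1, Slc26a4, Ptprc and the genes overlapping members, were chosen after their values were seen. Promoter sequences are from RefSeq (GRCm38.p6) and transcript sequences from GENCODE M21.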

Additional observations from a re-analysis of the deposited data

Results flagged for a closer look

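A pair of member transcripts with a mean of at least 1 FPKM lay on opposite sides of shCtrl in the 2 knockdown lines. Gata2-201, the leading transcript of Gata2, had a log2 ratio of 0.103 in shGR1 and -0.0612 in shGR2, from levels of 1.89, 2.03 and 1.81 FPKM in shCtrl, shGR1 and shGR2. Pax8-205, the retained intron of Pax8, had a log2 ratio of -0.47 in shGR1 and 1.68 in shGR2, from 1.45, 1.05 and 4.66 FPKM, which rest on roughly 23.7 fragments at most. With 1 library per line the difference between the lines was not tested.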

How the results depend on the processing

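Across 10 alternative scalings, filters, pseudocounts and transcript choices, 5 of the 7 expressed factors (Gata3, Tfcp2l1, Grhl1, Grhl2 and Pax2) were lower than shCtrl in both lines every time. Gata2 lay on opposite sides of the control in 5 of them and Pax8 in 3. The mean log2 ratio of Gata2 turned to 0.0207 with the leading transcript alone. With that choice the mean of Grhl1 was -0.93 that of Pax2 -0.36, that of Pax8 -0.33 and that of Grhl2 -0.24. With no filter on low values Lhx1 entered, which gave 1 factor higher in both lines and 1 past 2-fold. With shGR1 alone and with shGR2 alone all 7 were lower, and 0 were higher or past 2-fold. Limma calls over all genes, 0 lower and 0 higher as reported, were 208 and 114 with median-centred values, 250 and 133 with the abundance trend removed, 132 and 67 with the length trend removed, 82 and 28 with a robust fit, and 339 and 109 over genes above 0 in all libraries. They were 0 and 0 in the other settings. None of these calls was a member. The cause of these changes was not tested. No paired analysis was possible because the control had 1 library. With 1 library per line, no counting or replicate error could be given for single values, and the levels of Lhx1, Gata2 and the minor transcripts rest on the fewest fragments.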

Other observations

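Some other transcription factor genes of kidney epithelia differed from shCtrl by more than any of the 7 expressed collecting duct factors. Of 39 listed, 24 were expressed, with 10 above and 7 below shCtrl in both lines, and the median log2 ratio was 0.18 beside -0.41 for the collecting duct factors and -0.05 for all genes. The ETS factor gene Ehf was at 178, 77.2 and 86.7 FPKM in the shCtrl, shGR1 and shGR2 libraries (-1.12 ± 0.12, n = 2 lines, limma adjusted p = 0.22) and was the only one of the 24 past 2-fold in both lines. Ovol2 was at -0.86 ± 0.11 on the same scale. On the other side, Bhlhe40, a basic helix-loop-helix repressor gene, was at 20.5, 41.6 and 31.5 FPKM (0.82 ± 0.28, limma adjusted p = 0.31), and Etv4, an ETS factor gene of the ureteric bud tip, at 12.1, 24.3 and 16.2 FPKM (0.71 ± 0.41, limma adjusted p = 0.43). None of the 24 passed an adjusted p of 0.05.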
